A study of Mus musculus with 2 samples.

Results

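Genes for sialyl-, fucosyl- and other glycosyltransferases were examined in diabetogenic CD4 T cells from treated and untreated mice. The members were the rows of the deposited gene table whose symbol begins with St3gal, St6gal, St6galnac, St8sia, Fut, Gcnt, Galnt, B3gnt, B4galt, Mgat or Chst, followed by a digit in all but St6galnac. This took 93 of 54532 rows, in 11 families. The 93 rows carry 92 symbols because St6galnac2 has 2 rows. The sulfotransferases of the Chst family add sulfate rather than a sugar and are included by the same rule.

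The cells were BDC-2.5 T cells, which carry a transgenic T cell receptor against pancreatic beta cells of the non-obese diabetic (NOD) mouse. They were activated and transferred into NOD.scid mice, a host that lacks T and B cells of its own but keeps myeloid cells. One group was given 1.75 mg of 2.5HIP-PLG nanoparticles intravenously 1 day after transfer, and the other group is labelled untreated. CD4-positive, Foxp3-negative (GFP-negative) effector cells were sorted from spleen and lymph nodes on day 6 after transfer in both groups. Cells of 4 mice per group were pooled into 1 library, so the study holds 2 libraries and no replicates. The submitters sequenced these cells to ask how tolerance is induced.

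Glycosyltransferases are Golgi enzymes that build the sugar chains of glycoproteins and glycolipids step by step. The mucin-type chains on serine or threonine, called O-linked chains here, begin with a Galnt enzyme and may be branched by Gcnt1. Mgat enzymes branch the chains on asparagine. B3gnt and B4galt enzymes lengthen the branches, and sialyltransferases and fucosyltransferases cap them. On T cells these caps decide which lectins can bind, among them the selectins of vessel walls, the galectins and the sialic acid receptors called siglecs.

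Counts are expected counts rounded to whole numbers, given in the order 2.5HIP-PLG then untreated throughout. CPM is a count per 1e+06 counts of its library. The library totals were 22580687 for 2.5HIP-PLG and 26036669 for untreated. One count was worth 0.0443 and 0.0384 CPM in these libraries. A gene without counts could still stand at 0.133 CPM in the first and 0.115 CPM in the second. All 12 genes of the T cell list were measured and 0 were called, with Cd4 at 41743 and 39739 counts and Cd3e at 23550 and 20110. Marker lists of other cell types had summed levels of 3.45 to 278 CPM after 2.5HIP-PLG and 2.27 to 153 CPM without, against 10450 and 8981 CPM for the T cell list. A ribosomal RNA gene, CT010467.1, took 0.202% of the 2.5HIP-PLG counts and 1.06% of the untreated ones. Other scalings shifted all log2 ratios by -0.02 to 0.01.

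Each ratio is 2.5HIP-PLG over untreated, after scaling by the library total, with an exact 95% interval for the counting error alone. A gene with a count sum of at least 20 was taken as measured. It is called higher at a ratio of at least 1.5 and lower at a ratio of at most 0.667, where the interval also excludes 1. With 1 library per group there is no test across samples, and a call describes these 2 libraries. The members were chosen with results of this contrast known, so their counts are a description.

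Of 59 measured members, 13 (22.0%) were lower after 2.5HIP-PLG, 5 (8.47%) were higher and 41 were neither. Among all 13902 measured genes, 9.7% were lower and 5.15% higher. Among the 11813 measured protein-coding genes, 7.89% were lower and 5.11% higher. The median log2 ratio of the measured members was -0.12, with 0.5 counts added, beside -0.01 for all measured genes. Among the 40 measured members whose counts were whole, 6 were lower (15%) and 4 higher (10%). Of all 8804 measured genes with whole counts, 891 were lower and 502 higher. Another 14 members had a count sum of 1 to 19, and 20 had no count in either library. Of the 16 measured sialyltransferase rows, 7 were lower and 0 higher. All members summed to 64472 and 82131 counts, a ratio of 0.905 (0.896 to 0.915) that was 0.998 (0.987 to 1.01) without St6galnac2. The families other than sialyltransferases had 6 of 43 measured members lower (14.0%) and 5 higher (11.6%).

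**Figure D1:**
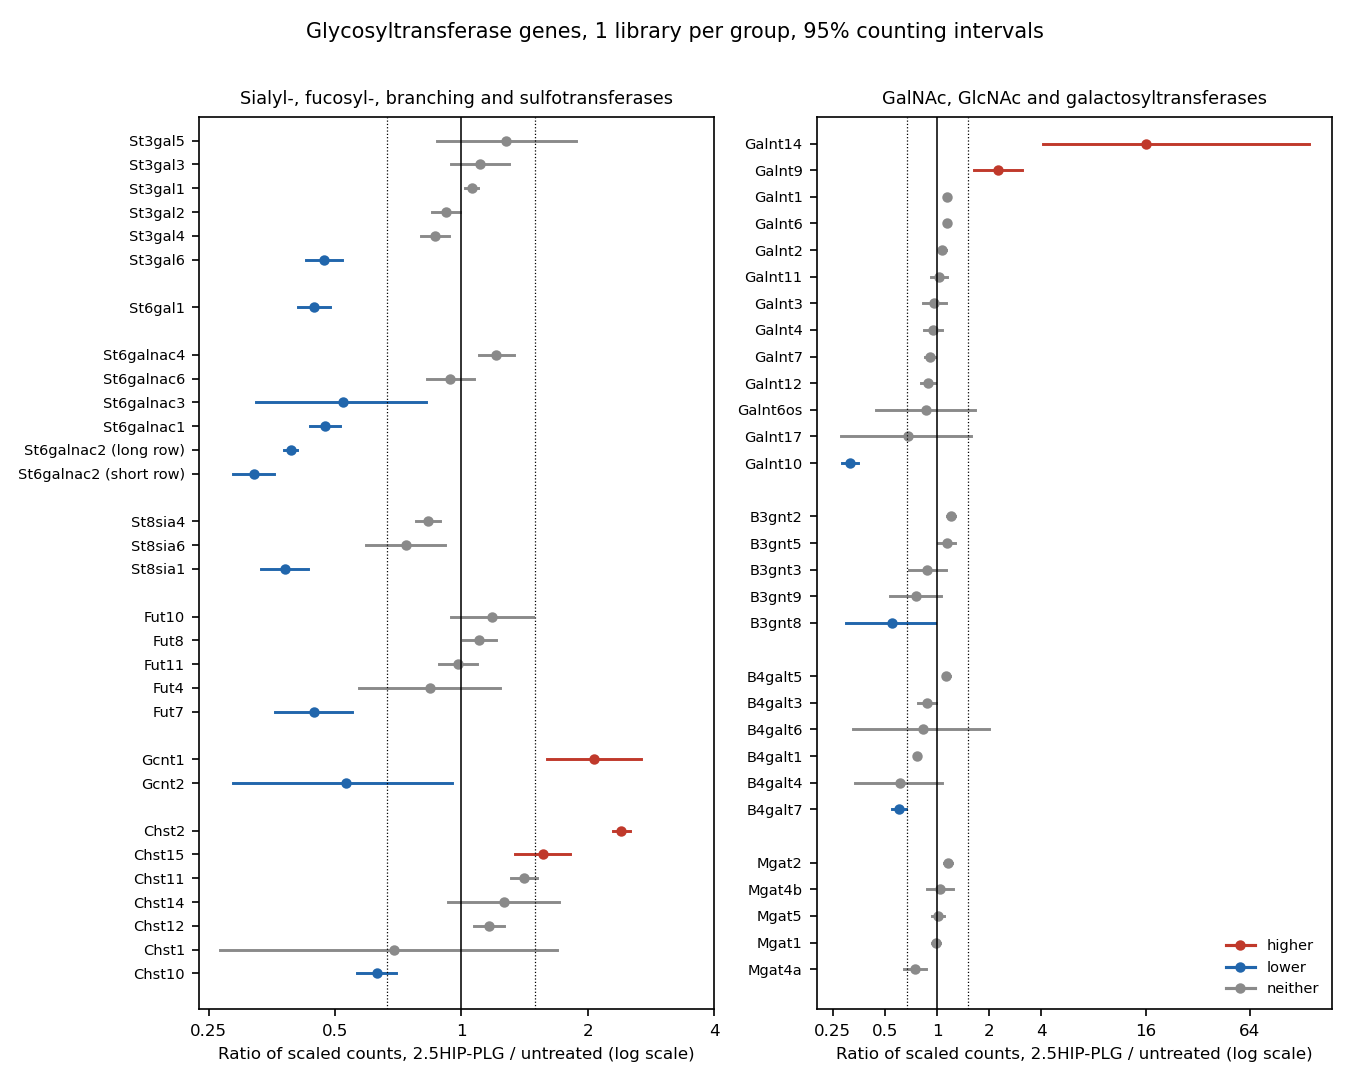
Ratio of scaled counts (2.5HIP-PLG over untreated, log axis) for the 59 measured members, grouped by family, with bars for the exact 95% counting interval and dotted lines at 0.667 and 1.5. Sialyltransferases lie at or left of 1.28, Chst2 stands at 2.41, and Galnt14 has the widest interval.

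For 17 symbols called in either direction, RefSeq promoters of GRCm38.p6 were looked up. Of these, 8 held exactly 1 promoter in that table, and St6galnac1 and St6galnac2 were not in it. A set of 4 single promoters is shown because they belong to the members with the largest differences among them, Galnt10 and St8sia1 on the lower side and Chst2 and Galnt14 on the higher side. Each is the 250 bases before the RefSeq start on the gene's strand, at chr11:57645192-57645441 (plus strand) for Galnt10, chr6:142964453-142964702 (minus) for St8sia1, chr9:95407271-95407520 (minus) for Chst2 and chr17:73710452-73710701 (minus) for Galnt14. Capitals mark the only motif of 10 searched that matched, the GC box GGGCGG on either strand.
Galnt10: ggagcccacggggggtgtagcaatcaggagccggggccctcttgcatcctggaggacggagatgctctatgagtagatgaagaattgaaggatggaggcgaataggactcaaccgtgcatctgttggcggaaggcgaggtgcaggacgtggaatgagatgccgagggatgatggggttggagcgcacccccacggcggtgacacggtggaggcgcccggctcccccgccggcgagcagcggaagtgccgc
St8sia1: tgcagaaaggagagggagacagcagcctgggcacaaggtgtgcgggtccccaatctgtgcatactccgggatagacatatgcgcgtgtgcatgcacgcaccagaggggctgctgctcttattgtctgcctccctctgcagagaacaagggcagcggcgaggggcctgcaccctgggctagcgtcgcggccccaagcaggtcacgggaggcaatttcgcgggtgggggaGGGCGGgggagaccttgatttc
Chst2: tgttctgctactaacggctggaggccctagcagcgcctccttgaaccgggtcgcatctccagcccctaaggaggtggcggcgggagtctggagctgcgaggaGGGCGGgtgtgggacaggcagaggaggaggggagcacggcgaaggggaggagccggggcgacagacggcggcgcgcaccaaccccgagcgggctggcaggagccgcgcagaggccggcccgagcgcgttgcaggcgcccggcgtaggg
Galnt14: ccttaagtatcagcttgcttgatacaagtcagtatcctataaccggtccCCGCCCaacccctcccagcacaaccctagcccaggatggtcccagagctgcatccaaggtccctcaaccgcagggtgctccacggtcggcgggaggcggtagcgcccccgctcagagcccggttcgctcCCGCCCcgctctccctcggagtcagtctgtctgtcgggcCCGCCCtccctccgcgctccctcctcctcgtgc

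Galnt10 had no match, St8sia1 had 1 beginning 22 bases before its start, Chst2 had 1 at 148 bases, and Galnt14 had 3 at 201, 72 and 33 bases. The other letters searched on both strands, overlaps allowed, were GGTGTGA (T-box), TGGAAA (NFAT), TGANTCA (AP-1), GTGGGCG (Egr), AAGGTCA (Nr4a), CCGGAA (ETS), CTTTGA (TCF), TGTGGTT (Runx) and the core promoter element TATAAA. Of these, GTGGGCG can overlap the GC box by 5 letters, and matches were counted separately. Over all members, 68 of 92 symbols matched the table with 92 promoters. A GC box stood in 52 of the 92 (56.5%) and in 32.7% of 32817 promoters of the same length. Of the 25 promoters of called members, 11 held a GC box. TATAAA stood in 2 of the 92 (2.17%) and in 12.4% of all promoters. GGTGTGA stood in 0 of the 92 and in 3.33% of all. The median GC content was 59.8% in member promoters and 52.4% in all. The median number of CG pairs was 13.5 and 6. The RefSeq start of Chst2 lies upstream of the gene's start in the annotation used for the counts' coordinates.

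Sialyltransferases had summed counts of 18579 and 32641, or 823 and 1254 CPM. The ratio of these sums was 0.656 (95% interval 0.645 to 0.668). St6galnac2, which adds sialic acid to the first sugar of O-linked chains, had the most counts among them in the untreated library. Without its rows the sums were 14462 and 20270, a ratio of 0.823 (0.805 to 0.840). Of the 14 measured rows left, 5 were lower (35.7%), beside 9.7% of all measured genes. The St6gal and St6galnac families, which place sialic acid on the sixth carbon of their acceptor sugar, had the lowest sums, at 0.445 and 0.457. St6gal1 was the only measured St6gal member, and St6galnac without the St6galnac2 rows stood at 0.724 (0.686 to 0.765). The St8sia family sum was 0.700 (0.662 to 0.739). The St3gal family sum was close to even at 0.948 (0.923 to 0.974).

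St6galnac2 is annotated as 2 overlapping protein-coding genes on the minus strand of chromosome 11 (GRCm38). The longer row, ENSMUSG00000057286 (116675303 to 116694868), had 3716 and 10930 counts. The shorter row, ENSMUSG00000110170 (116677483 to 116681290), had 401 and 1441. Their deposited counts were not whole, and expected counts divide ambiguous reads between such models, so their sum is given as well. Their sum of 4117 and 12371 counts gave a 2.61-fold lower level (2.52 to 2.70). Both rows stood lower after 2.5HIP-PLG, and how the reads fell between them is uncertain. In the counts of called members they enter as 2 rows. Without them 11 of 57 measured members were lower (19.3%).

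St6galnac1, which makes the sialyl-Tn structure, lies on the same chromosome (116765025 to 116775507) and had 827 and 2009 counts. It was 2.11-fold lower (1.94 to 2.29), with counts that were not whole. St6galnac3, an enzyme of gangliosides and O-linked chains, was scarce at 29 and 64 counts and 1.91-fold lower (1.22 to 3.08). The other measured family members were neither. St6galnac4 had 868 and 826 counts (ratio 1.21, 1.10 to 1.33), St6galnac6 had 420 and 514 (0.942, 0.826 to 1.07), and St6galnac5 had 2 and 3 counts. The family sum was 2.19-fold lower (2.12 to 2.25), and without the St6galnac2 rows it was 1.38-fold lower (1.31 to 1.46), short of the size for a call.

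The longer St6galnac2 gene and St6galnac1 are separated by 70.2 kb, and the measured genes around them were examined after the values of the pair had been seen. Of 11 other measured genes within 100 kb of the pair, 5 were lower and 0 higher, beside 9.7% lower and 5.15% higher among all measured genes. Mxra7, next to St6galnac1, had 27 and 143 counts (ratio 0.218, 0.139 to 0.330). Cygb, encoding the globin cytoglobin, had 36 and 130 (0.319, 0.214 to 0.465), with counts that were not whole. BC018473, between the pair, had 4324 and 7622 (0.654, 0.630 to 0.679), and Rhbdf2, an inactive rhomboid protease relative, had 1169 and 2129 (0.633, 0.589 to 0.680). The fifth, 1810032O08Rik, had 213 and 428 counts (0.574, 0.485 to 0.678) and overlaps exons of St6galnac2 on the opposite strand. Strand use in the counting is not given in the sources used here, so reads of that overlap cannot be assigned to either gene. On either side of the lower genes, Ube2o (0.802, 0.741 to 0.866) and Jmjd6 (0.794, 0.743 to 0.848) had intervals below 1 without reaching a call. Farther out, Srsf2 (0.897, 0.869 to 0.926), Mettl23 (0.991) and Mfsd11 (1.02) were near even.

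**Figure D2:**
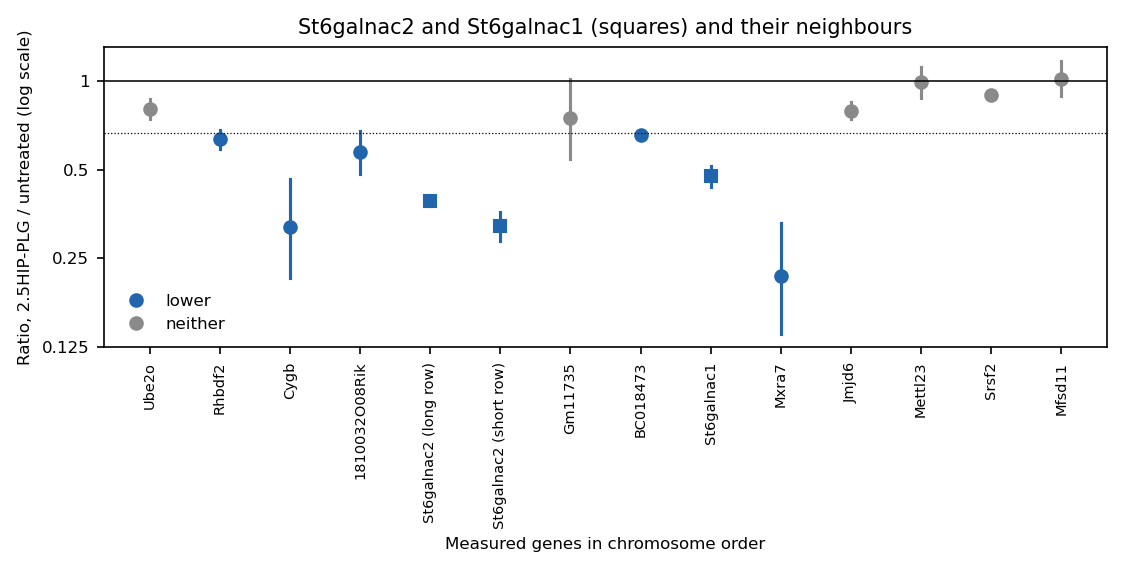
Ratio of scaled counts (log axis, bars for 95% counting intervals) for St6galnac2, St6galnac1 and the 11 other measured genes within 100 kb, in chromosome order. The lower genes, from Rhbdf2 to Mxra7, sit side by side apart from Gm11735 at 0.747, and the genes beyond them lie between 0.794 and 1.02.

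St6gal1, which caps asparagine-linked chains and so makes the ligand of the B cell siglec CD22, had 713 and 1846 counts. It was 2.25-fold lower (2.06 to 2.45; chromosome 16, 23224740 to 23360350). B cells are rich in this enzyme, and the B cell list had 107 and 190 summed counts, of which Blk gave 97 and 166. The defining B cell genes were near 0, with Ms4a1 at 0 in both libraries and Cd79a at 2 and 3. St6gal2 had no count in either library. The exons of St6gal1 overlap those of BC106179 on the opposite strand, and its counts were not whole.

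St3gal6, which helps to build selectin ligands, was the lower member of its family. It had 572 and 1403 counts and was 2.13-fold lower (1.93 to 2.35; chromosome 16, 58468125 to 58524243). Its exons overlap those of Dcbld2 on the opposite strand and its counts were not whole. St3gal1, which caps core 1 chains, was the most abundant sialyltransferase after 2.5HIP-PLG at 6332 counts and had 6898 without (ratio 1.06, 1.02 to 1.10). St3gal4 had 1109 and 1477 counts (0.866, 0.800 to 0.937), and St3gal2 had 1132 and 1419 (0.920, 0.850 to 0.995). St3gal3 had 320 and 333, and St3gal5, which makes the ganglioside GM3, had 61 and 55. St3gal6 thus differed while the 5 other family members kept ratios of 0.866 to 1.28.

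St8sia1, the GD3 ganglioside synthase, had 318 and 964 counts and was 2.63-fold lower (2.31 to 2.99; chromosome 6, 142821545 to 142964452). Its exons overlap those of Gm7457 on the opposite strand. St8sia4, a polysialic acid synthase, was more abundant and nearer to even, with 1615 and 2234 counts (0.834, 0.781 to 0.889). St8sia6 had 144 and 225 counts, a ratio of 0.738 (0.594 to 0.914) that fell short of the size for a call. All 3 measured members had intervals below 1. St8sia2, St8sia3 and St8sia5 had no count in either library, nor did the antisense gene St8sia3os.

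Fut7, the leukocyte fucosyltransferase that completes the sialyl Lewis x ligand of selectins, had 126 and 326 counts. It was 2.24-fold lower (1.82 to 2.78; chromosome 2, 25423267 to 25426374). Fut4, the other selectin-ligand fucosyltransferase of leukocytes, had 49 and 67 counts and was neither (0.843, 0.571 to 1.24). Fut8, which adds the core fucose of asparagine-linked chains, had 964 and 1007 counts (1.10, 1.01 to 1.21). Fut11 had 663 and 779 counts and Fut10 had 165 and 161. The family sum was even (0.969, 0.912 to 1.03) and Fut7 held 326 of its 2340 untreated counts. Fut1, Fut2, Fut9 and the pseudogene Fut4-ps1 had no count.

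Gcnt1, which makes the core 2 branch on which selectin ligands of T cells are built, was higher. It had 172 and 96 counts, 2.07 times the untreated level (1.60 to 2.68; chromosome 19, 17326141 to 17372844). Gcnt2, the branching enzyme of the blood group I antigen, was lower on few counts, 18 and 39 (0.532, 0.287 to 0.953), and overlaps A730081D07Rik and Gm31683 on the opposite strand. Enzymes of the selectin-ligand route thus lay on both sides, with Gcnt1 on the high side and Fut7 and St3gal6 on the low side. The family sum of 196 and 150 counts was 1.51 (1.21 to 1.88), and it dropped to 1.49 with upper quartile scaling, below the size for a call. Gcnt4 had 5 and 6 counts, Gcnt7 had 1 and 9, and Gcnt3 had none.

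Sulfotransferases stood higher as a family, with summed counts of 9067 and 6409 (ratio 1.63, 1.58 to 1.68). Chst2, which sulfates N-acetylglucosamine and is known for the sulfated selectin ligands of lymph node vessels, had the most counts of its members. It had 5115 and 2451 counts, 2.41 times the untreated level (2.29 to 2.53; chromosome 9, 95399292 to 95406722). Without Chst2 the family sums were 3952 and 3958, a ratio of 1.15 (1.10 to 1.20). Chst4, the partner enzyme of those vessels, had no count in either library, and the vessel genes Glycam1 and Madcam1 were at 0 in both as well. The 2 measured genes of the endothelial list had ratios above 1, with Cdh5 higher on 17 and 7 counts (2.80, 1.10 to 7.99) and Pecam1, also a gene of leukocytes, at 2850 and 2573 (1.28, 1.21 to 1.35). Their part in the Chst2 difference was not tested. Chst2 was a whole-count gene with no exon overlap in the annotation.

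Some other Chst members act on chondroitin or dermatan sulfate, and of these only Chst15 was called. Chst15 had 413 and 305 counts and was just past the size for a call (1.56, 1.34 to 1.82), with counts that were not whole and exons that overlap Gm10584 on the opposite strand. Chst11 had 1713 and 1398 counts and was just short of it (1.41, 1.32 to 1.52). Chst12 had 1177 and 1164 counts (1.17, 1.07 to 1.27), and Chst14 had 94 and 86 (1.26, 0.931 to 1.71). Ust, a sulfotransferase of the same chains outside the Chst family, had 199 and 253 counts (0.907, 0.749 to 1.10). Chst10, the enzyme of the HNK-1 epitope, went the other way with 538 and 986 counts (0.629, 0.565 to 0.700). Chst1 had 9 and 15 counts, Chst3 had 6 and 2, Chst7 had 1 and 2 and Chst13 had 1 and 0, while Chst5, Chst8 and Chst9 had none.

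The Galnt enzymes, which start O-linked chains, had nearly equal sums of 16158 and 18475 counts, a ratio of 1.01 (0.987 to 1.03). Inside that sum single members differed widely. Galnt10 had 430 and 1585 counts and was 3.20-fold lower (2.87 to 3.56; chromosome 11, 57645442 to 57787514), the lowest ratio of any measured member. Galnt9 had 121 and 62 counts and was higher (2.25, 1.64 to 3.11). Galnt14 had 28 and 2 counts, and its ratio of 16.1 had a wide interval of 4.07 to 139.8. The abundant members stayed close to even, with Galnt6 at 4493 and 4558 counts (1.14, 1.09 to 1.19) and Galnt1 at 4035 and 4088 (1.14, 1.09 to 1.19). Galnt2 had 3268 and 3516 counts (1.07, 1.02 to 1.12) and Galnt7 had 1526 and 1924 (0.915, 0.855 to 0.979).

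The remaining measured Galnt members were Galnt12 (749 and 972 counts), Galnt11 (650 and 727), Galnt4 (511 and 619), Galnt3 (316 and 379) and Galnt17 (10 and 17), none of them called. Galnt6os, an antisense gene that overlaps Galnt6, had 18 and 24 counts. The exons of Galnt14 overlap those of AC107792.1 on the opposite strand. Galnt4 overlaps exons of Poc1b and its counts were not whole, so its share of those reads is uncertain. Galnt15, Galnt16 and Galnt18 had 0 to 2 counts per library, and Galnt5 and Galnt13 had none. The 10 members that were neither spanned ratios of 0.678 to 1.14.

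B4galt enzymes, which add galactose, had 1 of 6 measured members lower, beside 9.7% of all measured genes. B4galt7, which builds the linker of glycosaminoglycans, had 742 and 1419 counts and was 1.66-fold lower (1.52 to 1.82; chromosome 13, 55599896 to 55610443), with counts that were not whole and exons that overlap Gm15911 on the opposite strand. B4galt1, the main galactosyltransferase of glycoproteins, had 3860 and 5819 counts and was below 1 without reaching a call (0.765, 0.734 to 0.797). B4galt5, a lactosylceramide synthase, had 3256 and 3327 (1.13, 1.07 to 1.18). B4galt3 had 476 and 627 counts, B4galt4 had 20 and 38 (0.607, 0.335 to 1.07), B4galt6 had 10 and 14, and B4galt2 had 4 in each library. The family sum was 0.858 (0.834 to 0.883).

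Among the B3gnt enzymes, which add N-acetylglucosamine to galactose, B3gnt2 was the most abundant. This poly-N-acetyllactosamine synthase had 2946 and 2814 counts (1.21, 1.15 to 1.27). B3gnt8 had 19 and 40 counts and was lower (0.548, 0.300 to 0.968), but its exons overlap those of Bckdha on the opposite strand and its counts were not whole. B3gnt5, which starts the lacto-series glycolipids, had 637 and 648 counts, B3gnt3 had 116 and 152, and B3gnt9 had 60 and 92 (0.752, 0.534 to 1.05). B3gnt4 had 0 and 13 counts, B3gnt6 had 0 and 3 and B3gnt7 had 2 and 5, below the minimum for a ratio. The family sum was 1.16 (1.11 to 1.21).

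The Mgat enzymes, which branch asparagine-linked chains, had 0 of 5 measured members called, beside 9.7% lower and 5.15% higher among all measured genes. Mgat1, which opens the path to complex chains, had 2366 and 2779 counts (0.982, 0.929 to 1.04), and Mgat2 had 2372 and 2364 (1.16, 1.09 to 1.23). Mgat5, whose branch is a favoured ligand of galectins and is known to restrain T cell receptor clustering, had 1079 and 1232 (1.01, 0.930 to 1.10). Mgat4b had 243 and 269 counts, and Mgat4a had 295 and 456 (0.746, 0.642 to 0.865), below 1 but short of a call. Mgat3 had 2 and 1 counts, and Mgat4c, Mgat4d, Mgat4e and Mgat5b had none.

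**Figure D3:**
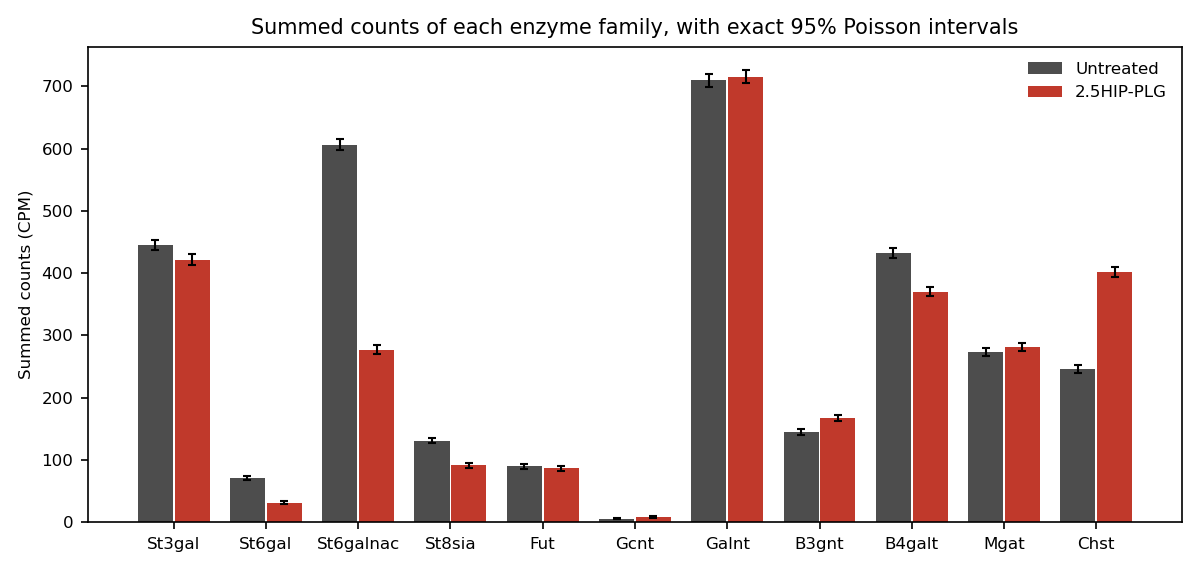
Summed counts of each enzyme family in CPM, untreated (grey) and 2.5HIP-PLG (red), with exact 95% Poisson intervals. The St6galnac bars stand at 606 and 277 CPM and the Chst bars at 246 and 402 CPM, while the Galnt bars reach 710 and 716 CPM.

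Levels were compared between genes as CPM per kilobase of annotated exon. In the untreated library the longer St6galnac2 row ranked first of the 59 measured members at 72.5 CPM per kilobase, ahead of B4galt1 at 52.8, Galnt6 at 45.2, St3gal1 at 38.7 and Mgat2 at 34.7. After 2.5HIP-PLG it ranked 10 at 28.4, and Galnt6 ranked first at 51.4, followed by St3gal1 at 40.9, B4galt1 at 40.4 and Mgat2 at 40.2. With the longest transcript as length the same row kept its first place without treatment and ranked 3 with it. Chst2 moved from rank 19 at 12.8 CPM per kilobase to rank 9 at 30.9. St6gal1 moved from rank 17 at 14.4 to rank 22 at 6.42, and Galnt10 from rank 21 at 10.2 to rank 36 at 3.19. Gcnt1 and Fut7 were scarce per length, at 0.640 and 5.32 CPM per kilobase without treatment and 1.32 and 2.37 with it.

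**Figure D4:**
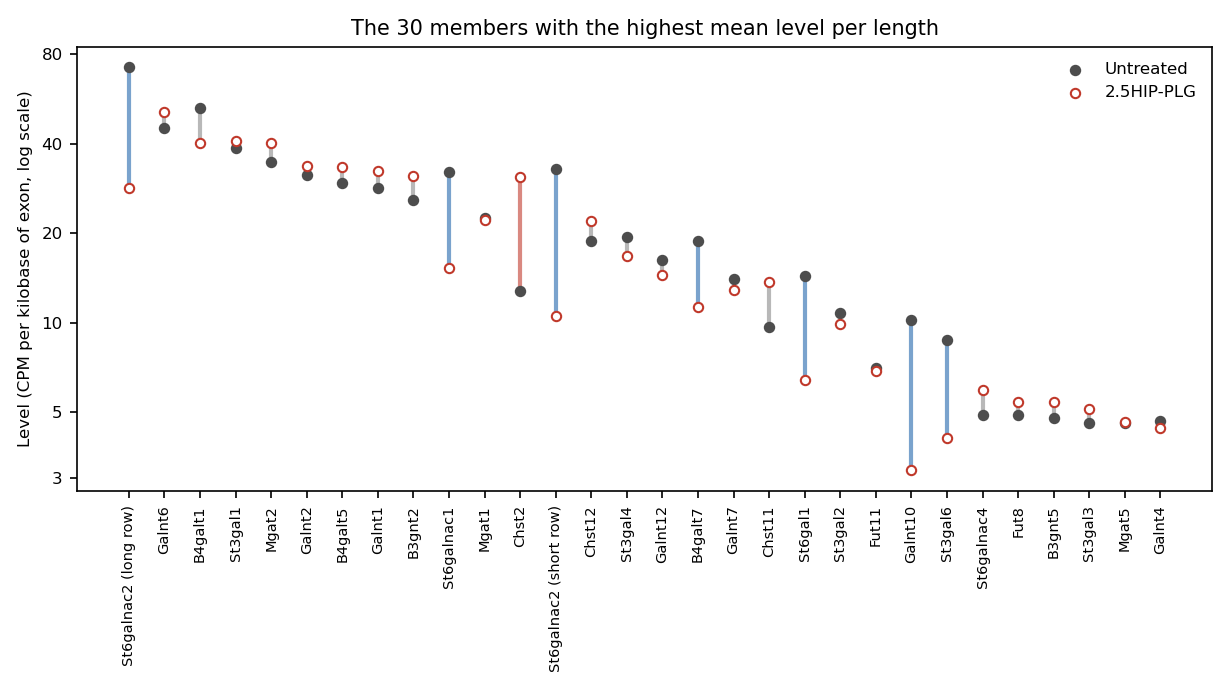
Level in CPM per kilobase of exon (log axis) of the 30 members with the highest mean of both libraries, untreated (filled) and 2.5HIP-PLG (open), with blue lines for lower, red for higher and grey for neither. The longer St6galnac2 row stands at 72.5 untreated and 28.4 after 2.5HIP-PLG, and Chst2 at 12.8 and 30.9.

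The genes around these enzymes were taken from lists made by role. Over 9 lists of sugar supply, trimming, other chain enzymes, carriers and lectins, 4 of 102 measured genes (3.92%) were higher and 6 (5.88%) lower. The shares were 5.15% higher and 9.7% lower among all measured genes, and 5.11% and 7.89% among protein-coding ones. The lists for sialic acid, fucose, hexosamine and sulfate supply and for trimming of asparagine-linked chains had 0 of 47 measured genes called, with ratios from 0.749 to 1.47. Cmas, which activates sialic acid, had 1534 and 1555 counts (1.14, 1.06 to 1.22), and Slc35a1, which carries it into the Golgi, had 280 and 325 (0.993, 0.844 to 1.17). Neu1, the lysosomal sialidase, had 1355 and 1944 counts (0.804, 0.749 to 0.862), and Neu3, the sialidase of gangliosides, had 684 and 538 (1.47, 1.31 to 1.64). The most abundant supply genes per length were Nans (2553 and 2798 counts; 1.05) and Cmah (4413 and 5328; 0.955) for sialic acid, Slc35c1 (2308 and 2440; 1.09) and Fuca1 (984 and 1135; 1.00) for fucose, and Papss1 (1038 and 1017; 1.18) and Slc35b2 (737 and 813; 1.05) for sulfate. Those of the other lists were Ogt (8217 and 10423; 0.909) and Mgea5 (4549 and 4920; 1.07) for hexosamine and Ganab (4701 and 5385; 1.01) and Mogs (2321 and 2334; 1.15) for trimming. None of the measured supply genes had a difference as large as that of St6galnac2 or St6gal1.

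Chain enzymes outside the families had 3 of 17 lower (17.6%) and 0 higher, beside 9.7% lower and 5.15% higher among all measured genes. B4galnt4 had 470 and 1288 counts (2.38-fold lower, 2.14 to 2.65), B3galt5 had 27 and 109 (3.50-fold, 2.28 to 5.55) and B3galt2 had 4 and 29 (6.29-fold, 2.21 to 24.6). C1galt1, which makes core 1, and its chaperone C1galt1c1 were neither, with 1936 and 2003 counts and 269 and 264 counts. B4galnt1, the GM2 synthase, was the most abundant of the list per length, with 11797 and 13035 counts (1.04, 1.02 to 1.07), followed by Lfng, a modifier of Notch, with 6203 and 9262 (0.772, 0.748 to 0.798). Of 20 measured glycosaminoglycan enzymes, 1 was higher (5%) and 2 lower (10%), near those shares of all genes. Ext1, a heparan sulfate polymerase, was higher (690 and 425 counts; 1.87, 1.66 to 2.12). The most abundant enzymes of this list per length, Chsy1 (5256 and 6173 counts; 0.982) and Xylt2 (1423 and 2060; 0.796), were neither. Hs3st3b1 (273 and 891 counts; 2.83-fold, 2.47 to 3.25) and the dermatan epimerase gene Dse (239 and 462; 1.68-fold, 1.43 to 1.97) were lower.

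Among the glycoprotein carriers, Podxl was lower. This sialomucin gene had 10 and 75 counts (6.50-fold lower, 3.35 to 14.1). Selplg, the P-selectin ligand that Gcnt1 and Fut7 act on, had 16728 and 25695 counts, a ratio of 0.751 (0.736 to 0.765) short of a call. Spn, encoding the O-glycosylated CD43, had 28269 and 35750 counts (0.912, 0.898 to 0.926), and Cd44 had 9378 and 11202 (0.965, 0.939 to 0.992). Thy1, the most abundant carrier per length, had 27674 and 36784 counts (0.867, 0.854 to 0.881). The galectins Lgals1 (23996 and 33045 counts; 0.837, 0.823 to 0.851) and Lgals3 (5402 and 6309; 0.987, 0.952 to 1.02) were neither. The siglec genes Cd22 (389 and 228 counts; 1.97, 1.67 to 2.33) and Siglecf (34 and 14; 2.80, 1.46 to 5.65) were higher. Siglecg (10 and 15; 0.769, 0.309 to 1.83) and Siglech (8 and 19; 0.485, 0.184 to 1.16) had ratios below 1 on few counts and were neither. The list of galectins and siglecs had 2 of 9 measured genes higher (22.2%) and 0 lower, beside 5.15% and 9.7% of all measured genes.

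**Figure D5:**
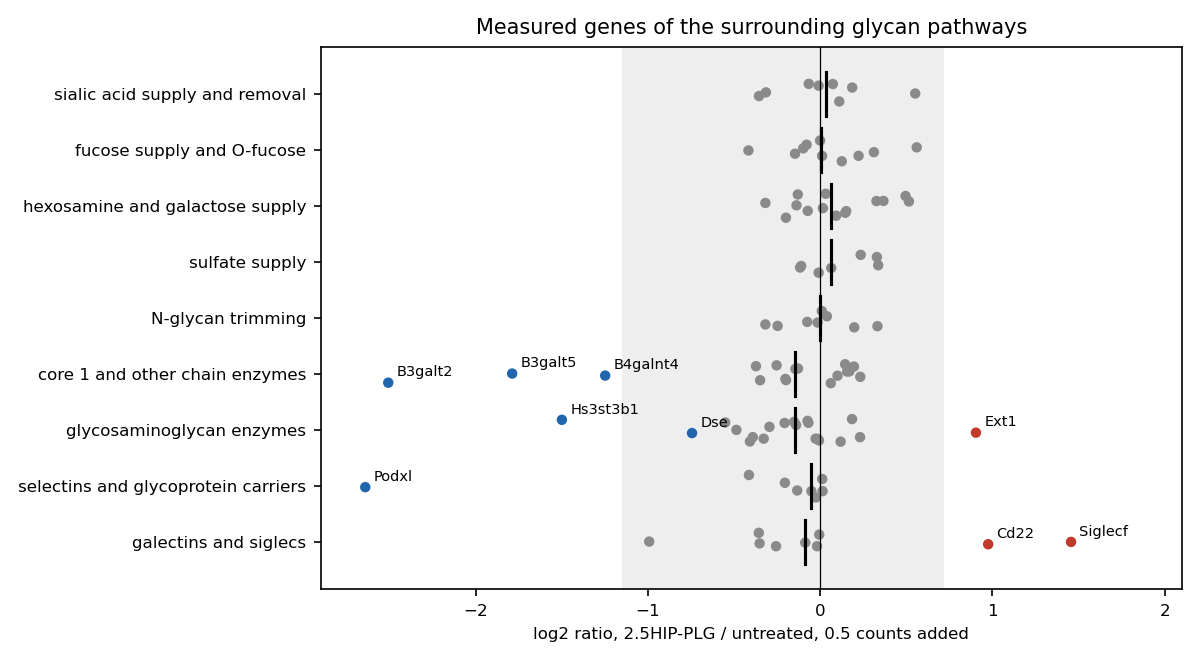
Log2 ratio (0.5 counts added) of measured genes in 9 lists of the surrounding glycan pathways, with black bars for list medians and grey shading for the 5th to 95th percentile of all measured genes. The supply and trimming lists hold no called gene, and Ext1, Cd22 and Siglecf lie on the higher side. A gene that is not reported here has no point, and medians are over all measured genes of a list.

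Some marker lists of other cell types differed between the libraries, and their part in the differences of the members was not tested. Among all measured genes, 5.15% were higher and 9.7% lower. The neutrophil list summed to 316 and 103 counts, with 2 of 3 measured genes higher, Mpo (237 and 57 counts) and Elane (31 and 9). The mast cell and basophil list summed to 724 and 593, with 4 of 6 higher, among them Prss34 (199 and 54) and Mcpt8 (116 and 22), and Fcer1a at 10 and 0. Kit, with the most counts of that list, went the other way at 292 and 471 (0.715, 0.616 to 0.829) without reaching a call. Ms4a2 (14 and 8; 2.02, 0.790 to 5.55) and the neutrophil gene Ly6g (14 and 11; 1.47, 0.619 to 3.57) had ratios above 1 on few counts and were neither. Kit was the only measured gene of both lists with a ratio below 1.

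The natural killer cell list summed to 1153 and 849 counts, with 3 of 6 higher and 2 lower. The shares of all measured genes, for this and the next lists, were 5.15% higher and 9.7% lower. Eomes led it at 735 and 360, and Klre1 had 211 and 308. The dendritic cell list summed to 1543 and 2499, with 1 of 6 lower, Itgax, and Clec9a at 0 and 1. Its most abundant genes, Cd74 (1042 and 1541; 0.780, 0.720 to 0.844) and H2-Ab1 (138 and 237; 0.671, 0.540 to 0.832), had intervals below 1 without reaching a call. All 6 measured genes of the dendritic cell list had ratios below 1. The macrophage list summed to 408 and 411, with 2 of 8 higher and Cd68 (107 and 96) and C1qb (54 and 44) most abundant. These lists did not share 1 direction.

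Of the plasma cell list, Irf4, also a gene of activated T cells, was higher (3917 and 1335 counts), Sdc1 was lower (28 and 95), Xbp1 was neither (1423 and 1647) and Jchain was at 0 in both libraries. The fibroblast list summed to 78 and 59 counts, with Col1a1 higher (39 and 14), Pdgfrb at 34 and 39, and Col3a1 and Pdgfra at 0 in both. The erythroid list summed to 1146 and 1259, with Hba-a1 at 557 and 579 and Hbb-bs at 355 and 513. In bulk RNA, fewer cells that express a gene and less RNA per cell cannot be told apart.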

How the data were processed

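RNA of sorted CD4 effector T cells was sequenced in 2 libraries, 1 per group, grouped by their treatment label. Per the labels' protocols, a Qiagen spin-column kit gave the RNA and a NuGen mRNA kit the libraries. STAR and RSEM 1.3.1 were used with GRCm38, per the submitters' processing notes. No strand setting, gene models or read filters are named there (not given in the sources used here), and the deposited table holds the authors' expected counts, not scaled between libraries, and 19 of the 59 measured members had values that were not whole.

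Counts were rounded and scaled by the library total. Ratios have exact conditional binomial (Clopper-Pearson) 95% intervals, which cover counting error only, as no molecular identifiers are described. The calculation was tested on simulated counts. Alternatives were TMM (edgeR 4.0.16), DESeq2 1.42.0 and upper quartile scaling in R 4.3.3, count minimums, a ratio of 2, a 99% interval, whole-count genes, unrounded counts and another length. Coordinates, exon lengths (the union of annotated exons) and overlaps came from GENCODE M21 on GRCm38. Python 3.11.15, numpy 2.4.6, pandas 2.3.3, scipy 1.17.1 and matplotlib 3.10.9 were used.

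The members and lists were chosen with earlier results of these data known. Genes were named by rule: called members, members with a ratio of at least 1.3 or at most 0.769, the 2 most abundant per family, called pathway genes and the 2 most abundant per list. Other names, and the neighbours of St6galnac2, were chosen after their values were seen. Some genes of the lists are counted in the totals but not reported here by name. Promoter sequences are RefSeq's for GRCm38.p6.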

Additional observations from a re-analysis of the deposited data

How the results depend on the processing

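Over 11 alternatives the number of lower members stayed within 1.5 times of 13, except that a ratio of 2 left 8 and whole-count genes left 6 of 40. The number of higher members stayed within 1.5 times of 5 in all of them. Of all measured genes, a ratio of 2 left 387 higher and 808 lower in place of 716 and 1348, a count sum of at least 100 left 473 and 748 of 11095, and whole-count genes left 891 lower of 8804. The Gcnt family sum of 1.51 dropped below the size for a call with upper quartile scaling (1.49) and without the 20 most abundant rows (1.498). The St6galnac sum of 0.457 was 0.724 without the St6galnac2 rows, an alternative added after the data were seen. All 130 ratios of named members under other scalings and unrounded counts kept their call. With the longest transcript as length, 12 of 59 levels per kilobase moved by over 1.5 times in each library. No paired analysis was possible because each group has 1 library. No replicate could be left out, so differences between mice or preparations cannot be told apart from the treatment. Members under 20 counts, such as Gcnt7 and B3gnt4, are too shallow for a ratio.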
